A study of Mus musculus with 2084 samples.

Results

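Collagens, laminins and integrins are the main fibres and sheets of the extracellular matrix and the receptors with which cells hold on to it. The genes described here were chosen by name: every protein-coding gene whose symbol is Col, Lama, Lamb, Lamc, Itga or Itgb followed by a digit, or Itgav. The rule found 81 of 35606 gene identifiers, with 44 collagen genes, 11 laminin genes, 22 integrin genes and 4 genes that share only the name. The last 4 are Col4a3bp, a ceramide transporter, Itgb1bp1, Itgb1bp2 and Itgb3bp. All 81 had counts, in 3 cells (Itgb2l) to 1066 cells (Itgb1), with a median of 168 of 1981 cells. In 5 genes (Col15a1, Col8a1, Itga9, Itgb2l and Lama1) more than 50% of all counts came from 1 cell. Of the 81, 29 overlap another annotated gene on the same strand and 49 on either strand, and reads from such overlaps could not be assigned with certainty.

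Smart-seq3 was used to read the RNA of single brain cells from adult mice, as one layer of an assay that also covers the epigenome. Cells came from the ventricular-subventricular zone (vSVZ), where neural stem cells line the lateral ventricle, and from the striatum, the cerebral cortex and the olfactory bulb. Naive WT mice (letters pA to pF) and naive WT mice with a TCF-Lef reporter (pL) had neither tamoxifen nor ischemia. TiCY mice, 2 months old, were given tamoxifen, on which Cre recombines in cells that express Tlx (Nr2e1) and turns on eYFP in vSVZ stem cells and their progeny. Both carotid arteries were occluded 2 weeks later, and the mice were killed 2 d (pI) or 21 d (pH) after this ischemia. Naive TiCY mice (pM) had no ischemia, and whether they were given tamoxifen is not stated for them separately. Mice without interferon receptors, here called the knockout, all carry the letter pJ: the naive ones are labelled IFN(A/G)R KO and those at 2 d TiCY-IFN(A/G)R KO. Each letter is a biological replicate of individual or pooled mice, so p-values measure the spread between letters, and in the ischemia experiment every genotype and day is 1 letter. Cells were sorted with antibodies to O4, GLAST, PSA-NCAM, Prominin1, CD9, CD45 and Ter119. The labels name 6 WT types in order of the neurogenic lineage and beside it: quiescent stem cells 1 and 2 (qNSC1 and qNSC2), active stem cells (aNSC), transit amplifying progenitors (TAP), neuroblasts and oligodendrocytes. These names may rest on the transcriptomes themselves, so tests between types are descriptive, whereas the sorts rest on surface proteins.

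Laminins are trimers of an alpha, a beta and a gamma chain and, with type IV collagen, build the basement membranes around blood vessels and under the brain surface. Integrins are dimers of an alpha and a beta chain that bind laminin, collagen or proteins with an RGD sequence, and the chain they share most often is beta 1. Stem cells of the adult vSVZ touch laminin-rich vessels and fingers of basement membrane, neuroblasts leave that place and migrate to the olfactory bulb, and oligodendrocytes meet laminin 2, the trimer with the alpha 2 chain, through their integrins.

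Col11a2, Col16a1, Col4a5, Itgav, Lama2 and Lama3 were the 6 members lower in neuroblasts in all 3 sets of cells described below; for one of each family, Lama2, Col11a2 and Itgav, the 250 bases before the RefSeq start (GRCm38.p6) are shown as examples. They are printed 5′ to 3′ on the gene's own strand, with matches in capitals to the GC box (GGGCGG), the CCAAT box (CCAAT) and the TATA box (TATAAA), each searched on both strands. Lama2 lies on chromosome 10 from 26980036 to 27619758, minus strand, in GENCODE on GRCm38, so its window (chr10:27616943-27617192) falls inside the longer GENCODE gene. Col11a2 lies on chromosome 17 from 34039437 to 34066685, plus strand, and its window is chr17:34038888-34039137. Itgav lies on chromosome 2 from 83724397 to 83806916, plus strand, and its window is chr2:83724147-83724396.
Lama2: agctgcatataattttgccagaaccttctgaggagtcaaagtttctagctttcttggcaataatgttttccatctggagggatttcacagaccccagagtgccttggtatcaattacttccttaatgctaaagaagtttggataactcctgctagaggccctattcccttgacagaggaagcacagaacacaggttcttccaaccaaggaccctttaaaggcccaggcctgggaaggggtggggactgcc
Col11a2: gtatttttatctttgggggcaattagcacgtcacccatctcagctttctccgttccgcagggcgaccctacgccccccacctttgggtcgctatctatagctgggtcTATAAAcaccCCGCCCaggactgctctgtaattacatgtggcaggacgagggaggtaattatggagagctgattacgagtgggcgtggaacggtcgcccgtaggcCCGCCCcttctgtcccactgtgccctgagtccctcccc
Itgav: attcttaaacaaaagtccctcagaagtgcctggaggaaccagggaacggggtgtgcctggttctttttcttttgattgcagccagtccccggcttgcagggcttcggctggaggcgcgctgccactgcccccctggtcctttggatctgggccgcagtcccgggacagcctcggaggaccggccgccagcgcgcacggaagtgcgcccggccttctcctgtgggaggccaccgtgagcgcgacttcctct

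The Col11a2 window held 2 GC boxes and 1 TATA box, and the windows of Lama2 and Itgav held none of the 3 motifs. RefSeq windows were matched for 59 of the 81 genes, of which 28 held a GC box, 16 a CCAAT box and 5 a TATA box. Over 32851 promoter windows of that length the shares were 32.7%, 33.8% and 12.4%. A match is a string of letters and not a site of binding.

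Of 2584 cells in the count table, 1981 matched a labelled cell; they held a median of 160621 counts (3771 to 1842234). The letters fell into 2 sets by depth: the median was 648839 to 1000340 counts per cell in pA, pB and pE and 120498 to 304367 in the other 8 letters. Counts were summed per group and letter, and values are CPM, the counts of a gene per 1e6 counts of the sum, scaled by TMM, a correction for library composition, unless raw CPM is named. The WT types gave 22 sums of 3 to 71 cells, and the neuroblast sum of pD held 7 cells. Among cells outside the neural lineage, fibroblast markers summed to at most 1.54 CPM in any WT sum, with Dcn at a mean of at most 0.0687 CPM in any type. The sum of 8 endothelial markers was 12.8 to 200.5 CPM and mostly Pecam1, which was at means of 42.0 to 69.2 CPM in all 6 types. In the quiescent types Cdh5, Emcn and Ly6c1 were at 0 and Kdr and Tek at means of at most 0.172 CPM. Flt1 reached 0.424 CPM in qNSC1 and 1.25 in qNSC2, and Cldn5 5.21 in qNSC2. Ependymal markers summed to 22.1 to 342 CPM in qNSC1 and 64.4 to 284 in qNSC2, with Rarres2 at means of 103 and 86.9 CPM. The sum of 8 mural markers was 59.5 to 144 CPM in qNSC1 and 116 to 176 CPM in qNSC2 against 0 to 24.4 CPM in the other types, and nearly all of it was Pdgfrb, with Kcnj8 and Vtn at 0 and Rgs5 at a mean of at most 0.0429 CPM. Cells with 3 or more vascular markers numbered 258 of 1981 and were left out in an alternative, but in pA, pB and pE this removed nearly all quiescent cells.

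Per base of transcript, the order of the genes differed between the WT types. Itgb1, the beta chain of most matrix receptors, was the highest member in aNSC at 43.4 ± 16.9 CPM per kb (SD, n = 3), in TAP at 53.5 ± 45.7 (n = 3), in neuroblasts at 19.1 ± 13.7 (n = 4) and in oligodendrocytes at 74.5 ± 25.5 (n = 3). In qNSC1 the highest were Itgb8, a partner of alpha v, at 30.8 ± 28.9 CPM per kb (n = 5), Col11a2, a fibrillar collagen chain, at 22.6 ± 9.57, and Itgav, the alpha v chain itself, at 18.9 ± 12.3. In qNSC2 they were Itgb8 at 22.8 ± 15 CPM per kb (n = 4), Lamb2, the beta 2 laminin chain, at 21.7 ± 20.7, and Itgb1 at 21.0 ± 6.42. Among these 3 genes of each quiescent type, neighbours in the order differed by less than their SD, whereas Itgb1 stood above the next member of aNSC, Itgb1bp1 at 12.1 ± 5.96, by more than its SD. The second gene of neuroblasts was Col9a3, a chain of the fibril-associated type IX collagen, at 14.8 ± 10.5 CPM per kb, close to its 14.6 ± 8.88 in qNSC1 and 15.5 ± 14.7 in oligodendrocytes. In oligodendrocytes Itgb4, the beta chain that pairs with alpha 6, followed at 43.0 ± 18.7 CPM per kb, then Itgb8 at 26.1 ± 19 and Itgav at 17.2 ± 5.88. Itgb5, another partner of alpha v, was at 13.8 ± 9.01 CPM per kb in qNSC1 and 11 ± 9.07 in qNSC2, and at 0 in all 3 TAP sums.

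Among laminin alpha chains, Lama2 led in qNSC1 at 7.17 ± 3.49 CPM per kb, in qNSC2 at 8.59 ± 8.19 and in oligodendrocytes at 5.07 ± 2.21, against 0.0119 ± 0.00849 in neuroblasts. Lama5, the alpha chain of many vessel laminins, was at 2.13 ± 1.18 in qNSC1, 5.45 ± 3.30 in qNSC2 and 0 in oligodendrocytes. Lama1, Lama4, Lamb1 and Lamc3 did not reach the level needed for a test in the WT types. Lama1 had counts in 24 cells of the whole table and Lamb1 in 88. The gamma chain with counts in most sums was Lamc1, at 8.63 ± 8.26 CPM per kb in oligodendrocytes and 1.28 ± 1.13 in qNSC1. Summed over the family, raw collagen CPM was 399 to 794 in qNSC1 and 423 to 649 in qNSC2, and 90.5 to 129 in aNSC, 62.9 to 240 in TAP, 121 to 315 in neuroblasts and 138 to 213 in oligodendrocytes. The collagen sums of the quiescent types thus lay above those of the other 4 types without overlap, whereas summed integrin CPM was 125 to 1359 in qNSC1 and overlapped the 661 to 1189 of oligodendrocytes.

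**Figure D1:**
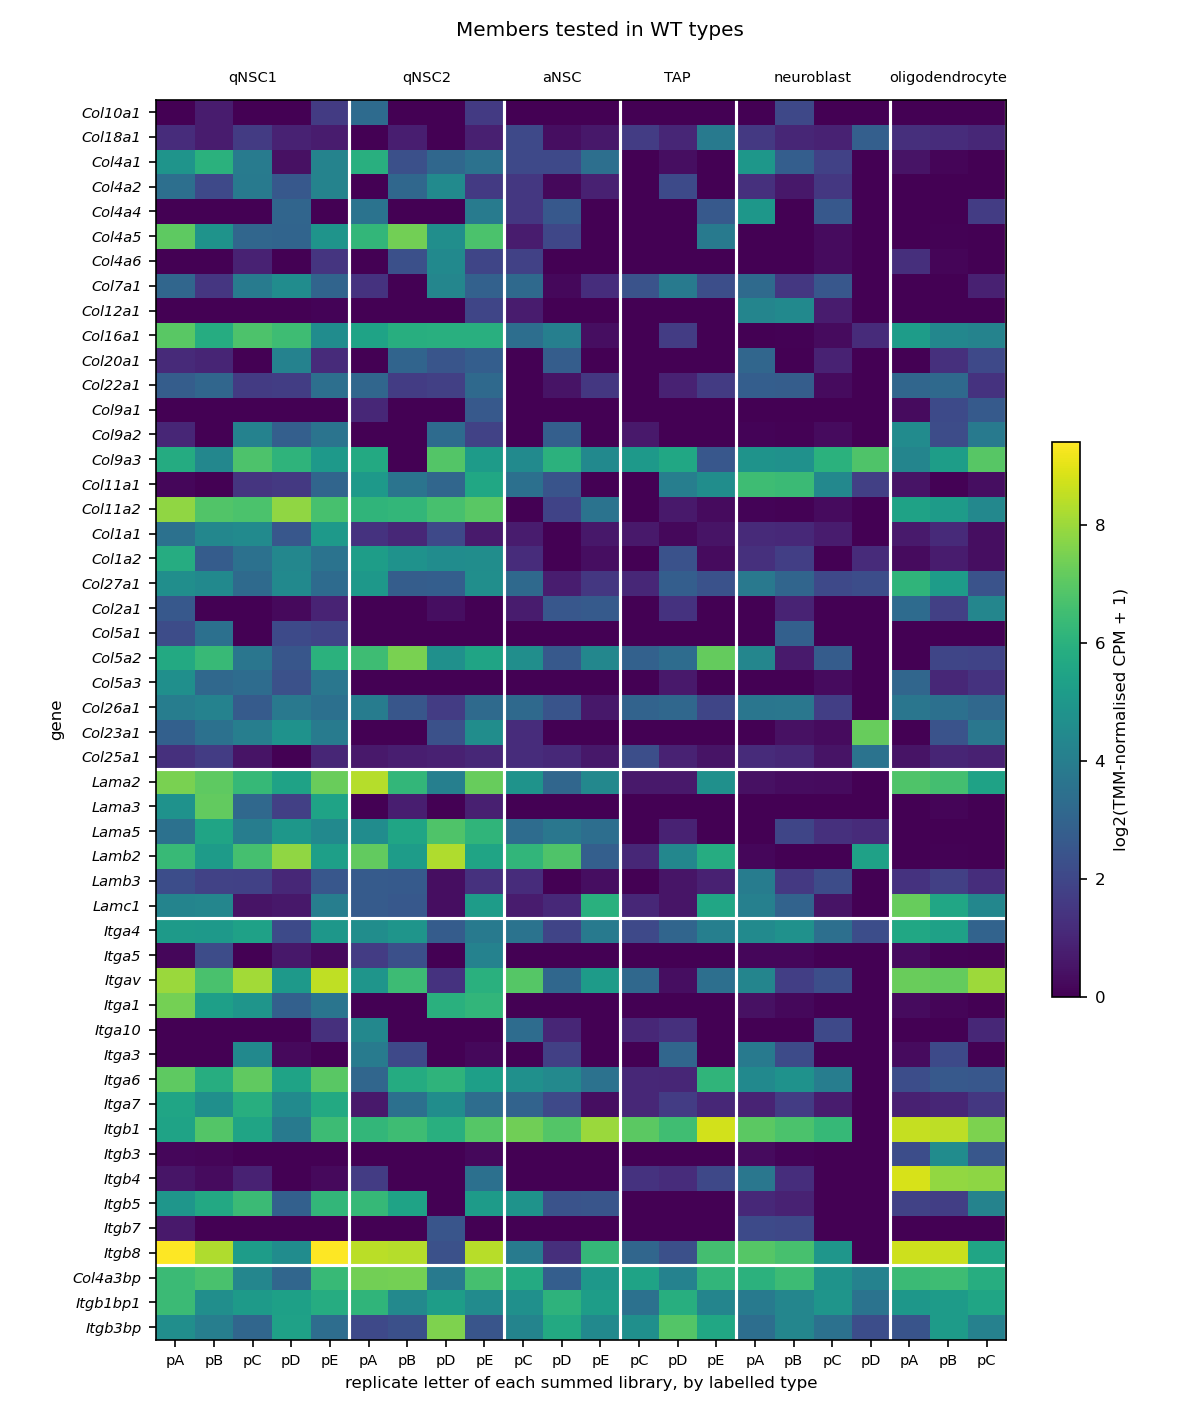
Level of the 50 members that passed the low-count filter (rows) in the 22 WT sums of type and letter (columns), as log2(TMM-scaled CPM + 1). Col11a2, Lama2, Lamb2 and Col16a1 are high in qNSC1 and qNSC2 columns and at or near 0 in neuroblast columns, except Lamb2 in pD, and Itgb4 stands out in the oligodendrocyte columns, at 220 to 453 CPM.

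Several members differed between the deep and the shallow letters of one type. In qNSC1 Itgb8 was at 310 to 675 CPM in pA, pB and pE and at 22.5 to 35.5 in pC and pD, Lama3 at 26.8 to 141 against 2.44 to 8.12, Col5a2 at 51.4 to 80.0 against 4.71 to 12, and Lamc1 at 15.4 to 18.8 against 0.427 to 0.524. In the opposite direction Lamb2 was at 34.4 to 80.2 CPM in the deep letters and 97.4 to 226 in the shallow ones, and Col9a3 at 19.3 to 53.6 against 68.4 to 107. The groups of letters did not overlap in any of these 6 genes, and the part of depth in them was not tested. They are examples named after their values were seen, and Lama2 separated as well, at 132 to 182 CPM against 41.4 to 77.3. Other members overlapped, such as Col11a2, at 102 to 228 CPM against 106 to 227, and Itga6, at 57.1 to 133 against 42.8 to 136. With 3 letters against 2, a gene can separate by chance. How many of the 50 members, or of all genes, separate in this way was not counted. Comparisons below are therefore also given within letter sets where the call changed. As a description over the 22 WT sums, which share letters and depth, Itgav followed its partners Itgb5 (Pearson's r = 0.79, Spearman's rho = 0.75) and Itgb8 (r = 0.70, rho = 0.66). The chains of one trimer or dimer did not all do so. For Col4a1 with Col4a2 r was 0.43 (rho = 0.52) and for Lama2 with Lamb2 0.39 (rho = 0.28). For Col11a1 with Col11a2 r was -0.34 (rho = -0.23) and for Itga6 with Itgb4 -0.35 (rho = -0.23).

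Between neighbouring steps of the lineage no member passed the threshold of edgeR's quasi-likelihood test (adjusted p under 0.05 over 14915 genes). From qNSC1 to qNSC2 0 of 50 members were called, against 0.0805% of all genes; 8 had an unadjusted p under 0.05 and DESeq2, a different count test, called 3. Col5a3, a fibrillar collagen chain, was at 11.6 ± 7.88 CPM in qNSC1 and 0 in all 4 qNSC2 letters (edgeR adjusted p = 0.118), and Lama3 at 44.3 ± 56.6 against 0.373 ± 0.431 (edgeR adjusted p = 0.164; with letter as a block 0.0450). From qNSC2 to aNSC 0 were called, against 0.194% of all genes, with 12 at an unadjusted p under 0.05 and 5 called by DESeq2. Col11a2 was at 92.4 ± 26.4 CPM in qNSC2 and 4.53 ± 5.68 in aNSC, without overlap (log2 difference -4.31 ± 0.94 SE; edgeR adjusted p = 0.0611, with letter as a block 0.0117). The median log2 difference of the members at this step was -2.13 (-1.99 with the 7 members that were at 0 in a group set to their bound), and that of all genes was -0.10. From aNSC to TAP 0 were called, against 0% of all genes, with 8 at an unadjusted p under 0.05 and 4 called by DESeq2. From TAP to neuroblasts 0 were called, against 0.0939% of all genes, with 12 and 5. Thbs4, a secreted matrix glycoprotein outside the 81, was called at the qNSC2 to aNSC step, from 485 ± 113 to 10.4 ± 2.80 CPM (log2 difference -5.54 ± 1.02 SE; edgeR adjusted p = 0.0271), and again from TAP to neuroblasts (edgeR adjusted p = 0.00405).

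Neuroblasts held less RNA of 12 members than qNSC1 and more of 1, of 50 tested. Over all genes tested, 7.70% were lower and 4.68% higher. They were 5 of 27 collagens, 3 of 6 laminins and 4 of 14 integrins, among them all 3 alpha laminins that could be tested (Lama2, Lama3 and Lama5), the alpha v chain Itgav with its partner Itgb5, and the laminin receptor chain Itga7. The median log2 difference was -1.28 over the members and -0.17 over all genes, with 34 of 50 below 0. Since type names may rest on these transcriptomes and the types were sequenced in the same letters, these counts are descriptive.

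Lama2, the alpha chain of laminin 2, was at 182, 132, 77.3, 41.4 and 153 CPM in qNSC1 of pA to pE and at 0.328, 0.237, 0.212 and 0 in neuroblasts of pA to pD. All 4 neuroblast sums lay far under every qNSC1 sum (log2 difference -8.78 ± 1.33 SE; edgeR adjusted p = 0.000188). Col11a2 was at 228, 115, 106, 227 and 102 CPM in qNSC1 and at 0.0656, 0.0395, 0.212 and 0 in neuroblasts (edgeR adjusted p = 7.31e-06), again without overlap. Col16a1, a fibril-associated collagen, went from 80.4 ± 41.4 to 0.370 ± 0.580 CPM (edgeR adjusted p = 0.000506). Lama3, the alpha chain of epithelial laminin, was at 44.3 ± 56.6 CPM in qNSC1 and at 0 in all 4 neuroblast sums, at least 612-fold lower against a floor of 3 counts over the group (edgeR adjusted p = 0.00217). Col4a5, a type IV collagen chain, was at 40.7 ± 52.5 against 0.0529 ± 0.106 CPM (edgeR adjusted p = 0.00296); without pA its adjusted p was 0.0527. The first 4 of these genes kept their call without each letter in turn. The 1 higher gene was Col12a1, a fibril-associated collagen, at 18.6, 21.3, 0.635 and 0 CPM in neuroblasts and at most 0.0568 in qNSC1 (edgeR adjusted p = 0.0150). It was higher in 3 of 4 letters, 65.3% of its neuroblast counts came from 1 cell, and the edgeR adjusted p was 0.0564 to 0.0922 without pA, pB or pC.

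The call count depended on which letters and cells entered. It was 6, 7 and 6 without pA, pB and pC, 2 within pC and pD alone, and 3 without cells that had vascular markers. Lamb2 was at 34.4 to 226 CPM in qNSC1 and at 0.131, 0 and 0 in neuroblasts of pA to pC, but at 40.5 in the 7 neuroblasts of pD, and was not called (edgeR adjusted p = 0.170; 0.0220 with letter as a block). Of the wider matrix lists, 5 of 22 genes of collagen synthesis and crosslinking, 3 of 16 integrin adaptors, 4 of 11 other matrix glycoproteins and 2 of 8 basement membrane partners were lower and none of these 4 lists had a higher gene. Of the proteases and their inhibitors 4 of 15 were lower and 1 higher. Of the list of latent TGF-beta proteins, only some of which alpha v integrins bind, 1 of 6 was lower. The smallest adjusted p were those of Thbs4 (94.5 ± 65.7 against 0.00987 ± 0.0197 CPM, edgeR adjusted p = 1.01e-05) and Tgfb2, a TGF-beta growth factor (78.4 ± 12.8 against 0.0691 ± 0.138, edgeR adjusted p = 0.000241). Vcl, the adaptor vinculin, followed (231 ± 178 against 1.34 ± 1.30, edgeR adjusted p = 0.000336).

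Oligodendrocytes, compared with the same qNSC1 sums, had 11 members lower and 3 higher of 50. The shares of all genes were 6.58% lower and 4.39% higher. Itgb4 was at 453, 233 and 220 CPM in oligodendrocytes of pA, pB and pC and at 0 to 0.854 in the 5 qNSC1 sums (log2 difference 9.95 ± 1.67 SE; edgeR adjusted p = 0.000458), higher in 3 of 3 letters. Its textbook partner did not follow: Itga6 was at 3.62, 5.24 and 4.85 CPM in oligodendrocytes and at 42.8 to 136 in qNSC1 (log2 difference -4.43 ± 1.34 SE; edgeR adjusted p = 0.0338). The 13 oligodendrocytes of naive TiCY mice (pM), which entered no comparison, gave 250 raw CPM of Itgb4 and 0 of Itga6. The other 2 higher members were Itgb3, a partner of alpha v (10.5 ± 10.9 against 0.0441 ± 0.0605 CPM; edgeR adjusted p = 0.00378, and 0.0764 without pB), and Col9a1. Col9a1, a type IX collagen chain, was at 2.97 ± 2.61 CPM against 0, at least 45.4-fold higher (edgeR adjusted p = 0.0454; 0.105 with letter as a block).

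Several chains of basement membranes were lower in oligodendrocytes, but Lama2 and Lamc1 were not. Lamb2 was at 0, 0.0468 and 0 CPM against 34.4 to 226 in qNSC1 (edgeR adjusted p = 0.00840; 0.0598 without pA and 0.0532 without pC). Lama5 was at 0 in 3 of 3 letters and at 24.2 ± 13.4 CPM in qNSC1, at least 308-fold lower (edgeR adjusted p = 0.000910). Col4a5 (0.0156 ± 0.0270 CPM; edgeR adjusted p = 0.00547), Lama3 (0.0312 ± 0.0540 CPM; edgeR adjusted p = 0.00800) and Itga7 (1.24 ± 0.571 against 40.3 ± 16.5 CPM; edgeR adjusted p = 0.0121) fell as well, and the called list also held Col4a1, Col4a2, Col1a1, Col1a2 and Itga1. Lama2 and Itgav, lower in neuroblasts, stayed measurable here: Lama2 was at 110, 96.5 and 41.8 CPM and Itgav at 151, 145 and 257, and neither was called. Lamc1, the common gamma chain, was at 19.4 to 149 CPM in oligodendrocytes and 0.427 to 18.8 in qNSC1, without overlap (edgeR adjusted p = 0.356; 0.00611 with letter as a block). In the pM oligodendrocytes Lama5, Lama3 and Lamb2 were likewise at 0 and Lama2 at 28.4 raw CPM. Among partners, 4 of 8 basement membrane genes and 7 of 11 other matrix glycoproteins were lower, led by Bcan, a lectican (0.239 ± 0.259 against 2132 ± 847 CPM; edgeR adjusted p = 4.91e-05), and 1 glycoprotein gene was higher, Hapln2, a link protein of the node of Ranvier (486 ± 48.1 against 0.252 ± 0.506; 5.45e-05). The count of called members was 3 without pA or pB, 4 without pC, 0 within pC and pD and 3 without cells that had vascular markers.

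**Figure D2:**
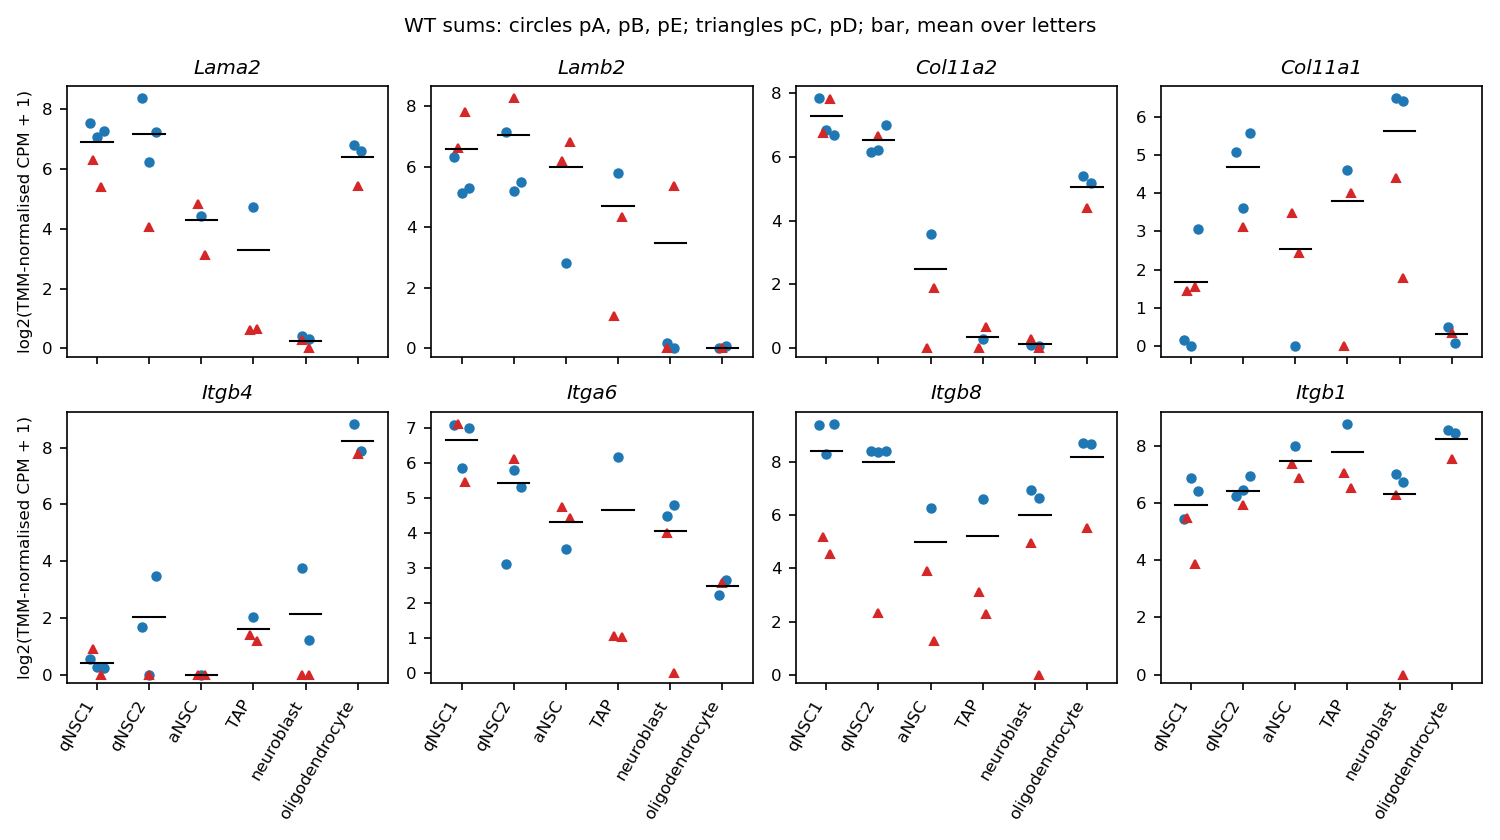
Level as log2(TMM-scaled CPM + 1) for 8 members in each WT type, 1 point per letter (circles for pA, pB and pE, triangles for pC and pD) and a bar at the mean CPM. Lama2 and Col11a2 fall from 41.4 CPM or more in every qNSC1 sum to 0.328 or less in every neuroblast sum, Itgb4 is above 200 CPM in oligodendrocytes alone, and the triangles of Itgb8 in qNSC1 sit below the circles.

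The surface sorts of pA, pB and pC ask the same question without type names, since NSC, NB (neuroblast), OLIGO and ASTRO cells were separated by antibodies. Their cells are among those of the WT types, so they are a second view and not new animals. In sums of sorted cells, fewer cells of a type and less RNA per cell cannot be told apart. Of the 41 cells of the NSC sort, the baseline here, 8 were labelled oligodendrocyte, 7 of them among the 15 cells of pB. Oligodendrocyte markers summed to 176 to 41323 raw CPM in the NSC sums, and their part in the differences was not tested. In the NB sort 11 of 44 members were lower than in the NSC sort and 1 was higher, against 8.16% and 3.62% of all genes. The median log2 difference of the members was -2.15 and that of all genes -0.02. Lama2 was at 184, 85.7 and 60 CPM in the NSC sort and 0.367, 0.253 and 0.225 in the NB sort (log2 difference -8.50 ± 0.98 SE; edgeR adjusted p = 0.000308). Col11a2 was at 214, 66.9 and 102 CPM against 0.0735, 0.0506 and 0.225 (edgeR adjusted p = 0.000243), and Lamb2 at 94.1, 24.0 and 116 against 0.147, 0 and 0 (edgeR adjusted p = 0.000552). In each of these 3 genes every NB sum lay far under every NSC sum. Col16a1 (86.6, 22.3 and 87.8 against 0, 0 and 0.225 CPM) had an edgeR adjusted p of 0.000582. Itgav, at 223, 114 and 234 CPM in the NSC sort, was at 20.8, 2.83 and 3.82 in the NB sort (log2 difference -4.37 ± 0.845 SE; edgeR adjusted p = 0.00573), and 78.9% of its NB counts came from 1 cell; without pB or pC its adjusted p was 0.0605 or 0.0630.

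The one gene higher in the NB sort was Col11a1, whose product joins Col11a2 in type XI collagen. It was at 80.5, 107 and 19.3 CPM against 0, 1.5 and 4.35 in the NSC sort, higher in 3 of 3 letters (log2 difference 5.25 ± 1.44 SE; edgeR adjusted p = 0.0325). In labelled neuroblasts it was at 88.2, 83.6, 19.9 and 2.46 CPM against 0 to 7.32 in qNSC1 (edgeR adjusted p = 0.0517, not called). Its NB sort call was lost without pA (edgeR adjusted p = 0.108) and without pB (0.273). Partner genes moved in number too: 8 of 22 genes of collagen synthesis and crosslinking, 4 of 16 integrin adaptors and 5 of 10 other matrix glycoproteins were lower in the NB sort, with 1 glycoprotein gene and 1 of 9 basement membrane partners higher. Named by the smallest adjusted p, they were Timp4, an inhibitor of matrix proteases (0.688 ± 0.806 against 224 ± 91.5 CPM; edgeR adjusted p = 0.000552), Bcan (11 ± 3.63 against 1251 ± 515; 0.000582) and Tns3, an adaptor that binds integrin beta tails (1.81 ± 2.12 against 128 ± 28.3; 0.000982). The member count was 6 without pA, 5 without pB and 2 without cells that had vascular markers.

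In the OLIGO sort 9 of 44 members were lower than in the NSC sort and none was higher, against 5.86% and 0.237% of all genes. Lamb2 was at 0, 0.0556 and 0 CPM against 94.1, 24.0 and 116 (edgeR adjusted p = 0.000561). Itga6 was at 4.14, 5.84 and 4.95 CPM against 83.0, 25.2 and 143 (log2 difference -4.06 ± 0.88 SE; edgeR adjusted p = 0.0143), and Itga7 at 1.24 ± 0.588 against 36.7 ± 15.6 (edgeR adjusted p = 0.00978). Both of these alpha chains, which bind laminin, were thus lower in all 3 letters. Type IV collagen was also low: Col4a1 was at 0.190 ± 0.240 against 34.4 ± 15.5 CPM (edgeR adjusted p = 0.0157), Col4a2 at 0, at least 79.1-fold lower (edgeR adjusted p = 0.0112), and Col4a5 had an edgeR adjusted p of 0.0189. The remaining calls were Lama3, Lama5, at least 134-fold lower, and the fibrillar Col1a1 (0.581 ± 0.269 against 12.6 ± 7.53 CPM; edgeR adjusted p = 0.0395). Itgb4 was not called in this comparison: it was at 455, 192 and 224 CPM in the OLIGO sort and 47.6, 120 and 0 in the NSC sort. The NSC sort held 8 cells labelled as oligodendrocytes, 7 of them in pB and 1 in pA, the letters with Itgb4 counts. The calls fell to 2, 1 and 3 without pA, pB and pC and to 0 without cells that had vascular markers. Between the ASTRO and NSC sorts 0 of 44 members were called, against 0.0906% of all genes, with 4 at an unadjusted p under 0.05 and 2 called by DESeq2, of which Itgb4 was one (0.767 ± 0.523 against 56.0 ± 60.6 CPM; edgeR adjusted p = 0.235).

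**Figure D3:**
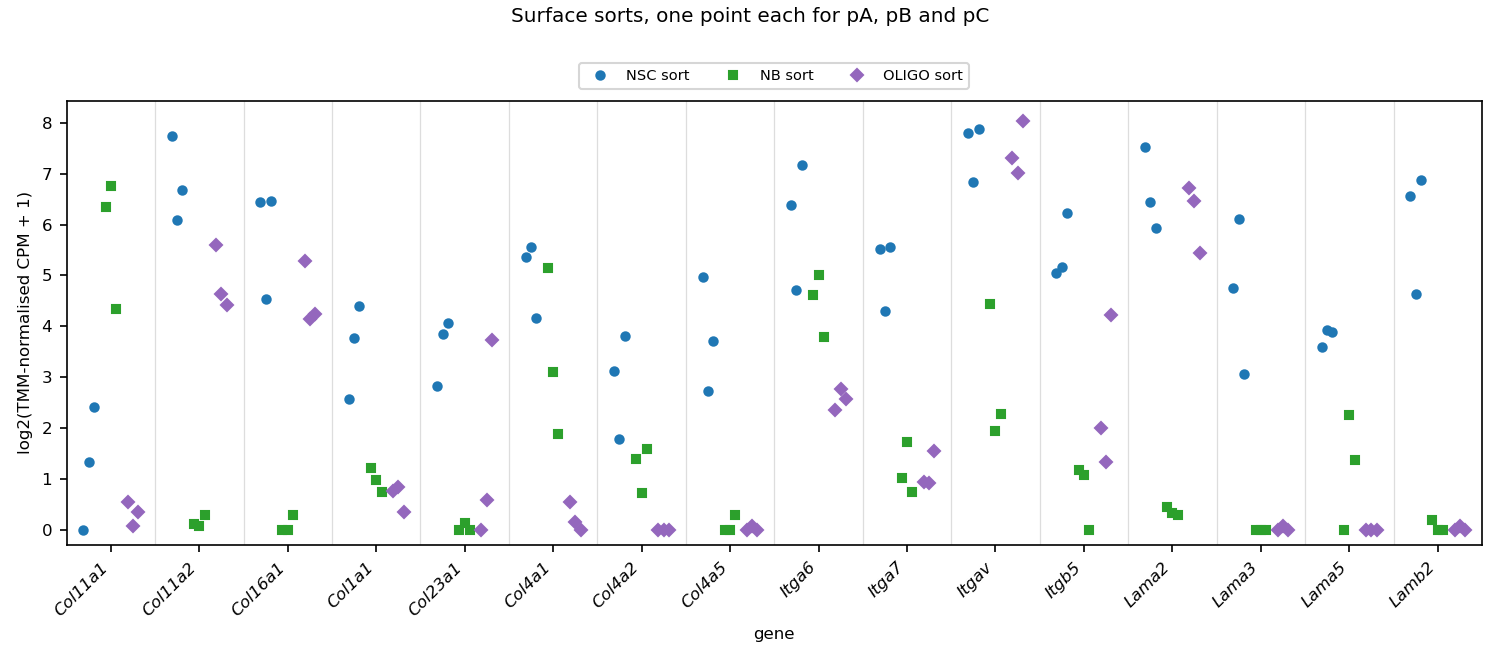
Level as log2(TMM-scaled CPM + 1) in the NSC sort (circles), the NB sort (squares) and the OLIGO sort (diamonds) of pA, pB and pC for the 16 members called in either comparison with the NSC sort. NB squares lie near 0 for Col11a2, Col16a1, Lama2, Lama3 and Lamb2, OLIGO diamonds lie near 0 for Lamb2, Lama3, Lama5 and Col4a2, and Col11a1 is the one gene with NB squares on top.

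Naive TiCY (pM) and naive knockout (pJ) cells give another view of neuroblasts with no cell or animal shared with the WT letters. Here 11 of 41 members were lower in neuroblasts than in qNSC2 and none higher, against 8.60% and 1.39% of all genes. The median log2 difference was -4.77 (-3.42 with the 15 members at 0 in a group set to their bound), and that of all genes was -0.86. Lamb2 was at 170 and 187 CPM in qNSC2 of pJ and pM and at 0 and 0.418 in neuroblasts (edgeR adjusted p = 0.000212). Lama2 was at 511 and 244 CPM against 0 and 3.35 (log2 difference -7.74 ± 1.19 SE; edgeR adjusted p = 0.00139), and Col11a2 at 150 and 57.7 against 0.503 and 0 (edgeR adjusted p = 0.00120). Itgav was at 48.3 and 43.3 CPM in qNSC2 and at 0 in both neuroblast sums, at least 58.4-fold lower (edgeR adjusted p = 0.00733), and Col16a1 at least 52.5-fold lower (edgeR adjusted p = 0.0140). Both letters showed each of these 5 differences. The lower genes here and in WT neuroblasts against qNSC1 had 7 in common, 63.6% of these 11 and 58.3% of those 12: Col11a2, Col16a1, Col4a5, Itgav, Lama2, Lama3 and Lama5. With the NB sort 7 were also in common, 63.6% of each list of 11, with Lamb2 in place of Lama5. The same overlap over all genes was not computed, so these shares do not show whether it is particular to the members. Partner genes named by the smallest adjusted p were Dag1, the laminin receptor dystroglycan (11.9 ± 10.4 against 306 ± 17.6 CPM; edgeR adjusted p = 0.000897), Tns3 (0.418 ± 0.592 against 355 ± 35.1; 0.00111) and Thbs4, at 0 against 766 ± 117 (0.00137).

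No member was called between astrocytes of the striatum and the vSVZ, or between vSVZ astrocytes and qNSC2, in the same naive mice. Between striatal and vSVZ astrocytes 0 of 41 members were called, against 0% of all genes, and 0 had an unadjusted p under 0.05 or a DESeq2 call. The gene with the smallest p was Lama3, at 131 ± 22.6 CPM in the striatum and 16.9 ± 2.38 in the vSVZ (log2 difference 2.96 ± 1.37 SE; edgeR adjusted p = 1). Between qNSC2 and vSVZ astrocytes 0 were called, against 0.0125% of all genes, with 2 at an unadjusted p under 0.05 and 0 called by DESeq2. Itga6 was at 8.66 and 11.6 CPM in qNSC2 and 111 and 54.9 in vSVZ astrocytes (log2 difference -3.03 ± 1.04 SE; edgeR adjusted p = 1), without overlap. Lama2 was at 208 and 358 CPM in vSVZ astrocytes and 190 and 273 in striatal ones, and Col11a2 at 196 and 188 against 428 and 290.

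At 2 d after ischemia the GLAST sort of the vSVZ (SVZ_Glast) held less RNA of 7 members and more of 6, of 76 tested, over both genotypes. The shares of all genes were 5.99% lower and 4.93% higher, and the median log2 difference was 0.59 over the members and 0.08 over all genes. Each genotype and day is 1 sum, so the fit had 1 residual degree of freedom and took its spread from the trend over genes. In both GLAST sorts each TiCY day is also its own letter, with a median of 304367 counts per cell in pI and 151508 in pM. In the knockout the 2 d and naive mice differ in label (TiCY-IFN(A/G)R KO and IFN(A/G)R KO). Day thus cannot be told apart from letter, depth or mouse line. Lama2 was at 242 raw CPM (exact 95% Poisson interval 237 to 248, which covers counting error only) in naive TiCY mice, 15.9 (14.6 to 17.3) at 2 d and 64.4 (61.2 to 67.7) at 21 d. In the knockout it was at 222 (215 to 228) when naive and 51.6 (49.2 to 54.1) at 2 d (log2 difference -3.09 ± 0.445 SE over both; edgeR adjusted p = 1.12e-09). Col11a2 was at 111, 3.30 and 99.5 raw CPM in TiCY mice when naive, at 2 d and at 21 d, and 130 and 40.8 in the knockout when naive and at 2 d (log2 difference -3.41 ± 0.505 SE; edgeR adjusted p = 3.05e-09). Both genes were low at 2 d in both genotypes, and their TiCY values at 2 d lay under those of the knockout, a difference between 2 sums that was not tested. Lama3 went from 8.55 to 0.434 raw CPM in TiCY mice and from 16.1 to 0.806 in the knockout (edgeR adjusted p = 0.000980). Itga6 (31.7 to 12.1 and 57.7 to 12.3 raw CPM; edgeR adjusted p = 0.00403), Col4a5 (45.1 to 6.51 and 28.9 to 8.76; 0.00451), Col4a2 and Itgav were lower too.

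The genes that rose were fibrillar, microfibrillar and fibril-associated collagens and 2 alpha chains that bind RGD proteins. Col5a3 was at 5.36 raw CPM in naive TiCY mice, 47.7 at 2 d and 1.22 at 21 d, and at 2.65 and 26.7 in the knockout (log2 difference 3.17 ± 0.71 SE; edgeR adjusted p = 0.000285). Itga5, the alpha chain of the fibronectin receptor, was at 0.806, 10.6 and 6.33 raw CPM in TiCY mice and at 0.540 and 12.3 in the knockout (log2 difference 4.02 ± 1.18 SE; edgeR adjusted p = 0.0103). Both genes were higher at 2 d in both genotypes, with intervals that did not overlap those of the naive sums. Itga2b, the alpha chain of the platelet fibrinogen receptor, had an edgeR adjusted p of 0.0192, but 61.9% of its naive counts came from 1 cell. The edgeR adjusted p was 0.0514 without the gene's single highest cell over all 5 sums, a 2 d cell. Col6a1 was at 0 in both naive sums and 2.57 and 3.74 raw CPM at 2 d, at least 50.6-fold higher (edgeR adjusted p = 0.0254; 0.0686 without the highest cell). Col12a1 was at 0.0350 and 0.0491 raw CPM, 2 counts in all, and then 4.08 and 4.95 (edgeR adjusted p = 0.0321; 0.116 without cells that had vascular markers), and Col5a1 was the sixth. Lamb2, at 117 to 167 raw CPM in TiCY mice and 111 to 283 in the knockout, was not called. The laminin chains Lama1, Lama4 and Lamb1 stayed low, at no more than 5.19, 4.47 and 3.03 CPM in any of the 5 vSVZ sums, and none was called. All 13 called members lay on the same side of the naive sum in both genotypes. The calls were made on these same sums and favour such agreement, so it is no separate support.

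The make-up of the sorted cells moved with these values. The sum of 6 astrocyte markers, all 6 with counts in every sum, went from 27047 to 6215 raw CPM in TiCY mice and from 22880 to 10253 in the knockout, and that of 6 neuroblast markers, again all with counts, from 559 to 3635 and from 480 to 2088. Of the knockout cells, 79 of 134 were labelled vSVZ astrocyte when naive and 36 of 228 at 2 d, and 8 and 76 were labelled neuroblast. Lama2, Col11a2, Lama3, Col4a5 and Itgav, lower here, were also among the genes lower in naive neuroblasts, a comparison that uses some of the same naive cells; the part of the changed mixture in the result was not tested, and fewer cells of a type and less RNA per cell cannot be told apart in these sums. Endothelial markers summed to 7.52 to 29.1 raw CPM and fibroblast markers to at most 0.971, with all 6 fibroblast genes at 0 in both knockout sums. Of partners, 4 of 17 integrin adaptors and 3 of 24 genes of collagen synthesis were lower with none higher, and 4 of 17 proteases and inhibitors were lower and 4 higher. The smallest adjusted p belonged to Hapln1, a link protein of the perineuronal matrix (158 ± 5.44 against 11.1 ± 12.2 CPM at 2 d; edgeR adjusted p = 3.36e-15), Vcl (209 ± 84.4 against 41.0 ± 25.5; 1.98e-06) and P4ha1, a prolyl hydroxylase of collagen (70.9 ± 34.1 against 14.0 ± 2.00; 8.07e-05).

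In the GLAST sort of the striatum (Str_Glast), 4 of 74 members rose at 2 d and 1 fell, against 2.00% and 0.295% of all genes. The median log2 difference was 1.84 over the members (1.73 with the 5 at 0 in a group set to their bound) and 0.36 over all genes, of which 13282 lay above 0 and 9127 below, so changes are read against that shift. Itga5 was at 2.67 raw CPM (1.93 to 3.60) in naive TiCY mice, 73.2 (70.9 to 75.6) at 2 d and 3.30 (2.39 to 4.44) at 21 d, and at 0.228 (0.00578 to 1.27) and 26.9 (23.9 to 30.2) in the knockout when naive and at 2 d (log2 difference 5.39 ± 1.23 SE; edgeR adjusted p = 0.00127). Col5a3 was at 18.6, 116 and 12 raw CPM in TiCY mice and 2.05 and 71.2 in the knockout (log2 difference 3.66 ± 0.87 SE; edgeR adjusted p = 0.00238). Lama3, high in naive striatal astrocytes, was at 99.8, 10.8 and 90.9 raw CPM in TiCY mice and 125 and 26.9 in the knockout (log2 difference -2.83 ± 0.73 SE; edgeR adjusted p = 0.00788). These 3 genes kept their call without cells that had vascular markers. The 2 knockout sorts at 2 d, labelled KO1 and KO2, both lay on the same side of the naive sum: Itga5 was at 14.1 and 44.1 raw CPM, Col5a3 at 46.6 and 104 and Lama3 at 40.6 and 8.51. Lamc1 was at 5.97 and 71.3 raw CPM in TiCY mice and 0.228 and 13.3 in the knockout (edgeR adjusted p = 0.0167, and 0.386 without cells that had vascular markers). Itga9, an alpha chain for tenascin and osteopontin, was at 0.559 and 126 raw CPM in TiCY mice but 0.913 and 2.23 in the knockout (edgeR adjusted p = 0.0324); 83.8% of its 2 d counts came from 1 cell, without which the adjusted p was 0.657.

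The TiCY sum at 2 d stood apart from the other 4 striatal sums. Of its 122 cells, 78 had 3 or more vascular markers, against 1 to 10 cells in the others. A marker counted with any read, and depth differed. In this sum 109 cells held a median of 407405 counts, against 142356 in the 131 naive TiCY cells. By the same rule 11 of 12 striatal astrocytes and 18 of 20 qNSC1 of pE, a deep letter, had such markers. The part of depth was not tested. In this TiCY sum at 2 d the 8 endothelial markers, all with counts, summed to 128 raw CPM against 17.8 to 29.9. Pecam1 was at 57.0 (means of 42.0 to 69.2 in the WT types) and Flt1 at 42.1, but Cldn5 was at 0.0601. Its astrocyte marker sum was 7526 raw CPM against 34722 in the naive TiCY sum, and the knockout went from 31203 to 21871. Neuroblast markers summed to 317 raw CPM at 2 d against 79.9 in TiCY mice and to 516 against 76.3 in the knockout, and 7 microglia markers to 40.2 against 7.95 in TiCY mice, where Cx3cr1 was at 34.8, and to 1.95 against 2.51 in the knockout. Several matrix genes were high in this sum and less so in the knockout: Itga7 was at 317 raw CPM against 33.1 when naive (knockout 93.4 and 38.8), Itgb5 at 285 against 83.1 (knockout 69.8 and 110) and Col4a1 at 82.4 against 15.5 (knockout 14.7 and 11.6). None of these 3 was called, and without cells that had vascular markers Itgb5 in this sum was at 39.0 and Itga7 at 289. Of all Itgb5 counts in the labelled cells, 37.7% came from 1 cell, more counts than any sum without cells of this one held. The high Itgb5 value of this sum thus rests largely on 1 cell. Itgb1 was at 44.1 raw CPM when naive and 158 at 2 d in TiCY mice and at 45.4 and 96.4 in the knockout, and was not called. Fibroblast markers were at most 6.67 raw CPM in any striatal sum, with Dcn, Lum, Ogn and Igf2 at 0 in all 5, and the part of vascular and other cells in the other values was not tested. Among partners Timp1, an inhibitor of matrix proteases, rose (1.57 ± 0.476 to 57.8 ± 57.9 CPM; edgeR adjusted p = 0.00427), as did Tnc, the glycoprotein tenascin C (6.22 ± 2.05 to 69.4 ± 46.2; 0.0158), and Hapln1 fell (237 ± 14.6 to 38.8 ± 44.0; 0.00246).

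**Figure D4:**
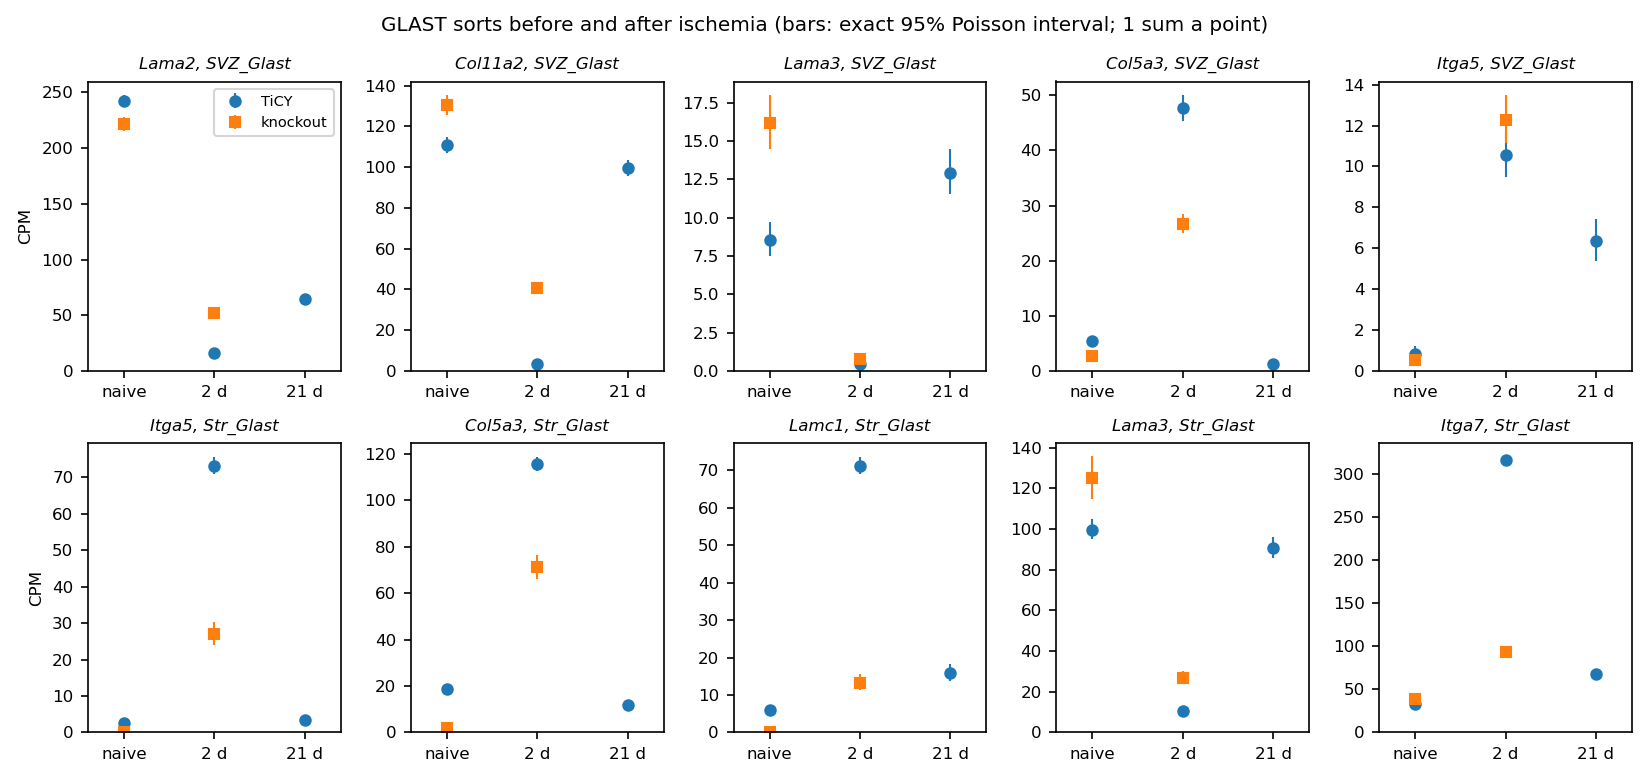
Raw CPM on a linear axis of 5 members each in the GLAST sort of the vSVZ (top) and the striatum (bottom), naive, 2 d and 21 d after ischemia, TiCY circles and knockout squares, with exact 95% Poisson bars. Lama2, Col11a2 and Lama3 dip at 2 d in the vSVZ sort while Col5a3 and Itga5 peak, and in the striatal sort Itga5 goes from 2.67 to 73.2 and back to 3.30 in TiCY mice.

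At 21 d there was 1 letter a side (pH against naive pM, the same controls as at 2 d), so no test was made. A member is called past the fold when log2 of the CPM ratio, with 5 CPM added to each, is at least 1 in size and one group has 10 CPM or more. In the vSVZ sort 2 of 25 members at that level were past the fold upward and 3 downward, against 8.90% and 8.44% of all genes, shares near those of the members. Lama5 was at 46.5 raw CPM (43.8 to 49.3) against 6.59 (5.68 to 7.60), a log2 ratio of 2.15, and Itga6 at 70.9 against 31.7 (1.05). The naive knockout sum, which is no control of pH, held 33.2 raw CPM of Lama5 and 57.7 of Itga6, nearer to the 21 d values than to those of naive TiCY mice. The astrocyte marker sum was 16218 raw CPM at 21 d against 27047, and that of neuroblast markers 314 against 559; their part in the result was not tested. Lama2 (-1.83) and Col4a5 (11.4 against 45.1 CPM, -1.61) were still below the naive level, and Col27a1, a fibrillar collagen of cartilage, was at 11.8 against 31.4 (-1.11). In the striatal sort 5 of 28 were past the fold upward and 2 downward, against 12.2% and 8.95% of all genes. Here the astrocyte marker sum was 20646 raw CPM against 34722 and the neuroblast marker sum 342 against 79.9, and their part was not tested either. Lama5 was again higher, at 46.3 (42.7 to 50.2) against 10 raw CPM (1.77), Col7a1, the collagen of anchoring fibrils, at 45.9 against 9.88 (1.78), and Itga3, a laminin receptor chain, at 54.7 against 9.01 (2.09), with 73.2% of its counts in 1 cell. Col4a1 was at 1.07 against 15.5 (-1.76) and Col4a5 at 6.83 against 21.5 (-1.16). Itgb1 was at 123 raw CPM against 44.1, beside 158 at 2 d.

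Within labelled types of the knockout 2 d and naive cells were compared with 1 sum a side and no test. Day and mouse line cannot be told apart here either, and the type labels may rest on the transcriptomes. Cells with 3 or more vascular markers were 4 of 36 at 2 d against 2 of 79 naive in vSVZ astrocytes, 5 of 82 against 3 of 35 in striatal astrocytes and 6 of 67 against 0 of 31 in qNSC2, and their part was not tested. Of the vSVZ astrocytes, 12 of 31 members were past the fold upward and 9 downward, against 17.9% and 20.1% of all genes; of striatal astrocytes 10 and 4 of 29, against 19.8% and 13%; and of qNSC2 12 and 11 of 34, against 18.7% and 21.2%. Col5a3 was up in all 3: from 4.57 (3.43 to 5.96) to 119 raw CPM (110 to 128) in vSVZ astrocytes, where 74.4% of the counts came from 1 cell, from 2.05 to 65.1 in striatal astrocytes, and from 0 to 18.5 in qNSC2, at least 30.3-fold. Col27a1 was also up in all 3, from 43.9 to 203, from 18.9 to 81.1 and from 16.3 to 78.9 raw CPM, and so was Itga7. Lama3 was past the fold downward in all 3, and Col4a3bp was past it upward in striatal astrocytes (1.12) and downward in vSVZ astrocytes (-1.69) and qNSC2 (-1.07). Lama3 was lower in striatal astrocytes at 38.2 against 125 (-1.59) and in qNSC2 at 0 against 29.5, at least 94.5-fold lower, with 78.6% of the naive counts in 1 cell. In qNSC2 the largest rises were those of Itga7, from 0 to 54.1 raw CPM (at least 88.8-fold), and Col16a1, from 51.0 (44.9 to 57.7) to 369 (357 to 381), and Lama2 went from 492 (472 to 512) to 93.1 (87.1 to 99.4; -2.34), with Itgb3bp, a centromere protein, from 61.8 to 8.21. Lamb2 was past the fold too, at 625 against 164 raw CPM in qNSC2 and 424 against 103 in vSVZ astrocytes.

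In vSVZ astrocytes the next genes upward rested on few cells. Itga2b went from 0 to 45.7 raw CPM with 96.2% of the counts in 1 cell, and Itga5 from 0.0845 (1 count) to 30.9 with 64.2% in 1 cell. Those downward were Col4a4, from 15 to 0 (at least 28.4-fold lower), Col4a2, from 36.1 to 6.15 (-1.88), and Itga10, a collagen receptor chain, from 11.2 to 0 (at least 21.3-fold lower). In striatal astrocytes Col1a2, a chain of type I collagen, went from 0.457 (2 counts) to 21.4 raw CPM and Itga1, a collagen receptor chain, from 0 to 15.4 (at least 22.6-fold higher). Itga4, a receptor chain for fibronectin and VCAM1, went from 15.5 to 1.33 (-1.70) and Col11a2 from 364 (347 to 383) to 124 (116 to 132; -1.51). Col11a2 was not past the fold in vSVZ astrocytes, at 112 against 164 raw CPM (-0.54), or in qNSC2, at 80.2 against 144 (-0.81). Lama2, past it in qNSC2, was not in vSVZ astrocytes, at 130 against 175 (-0.41), or in striatal astrocytes, at 185 against 162 (0.19).

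**Figure D5:**
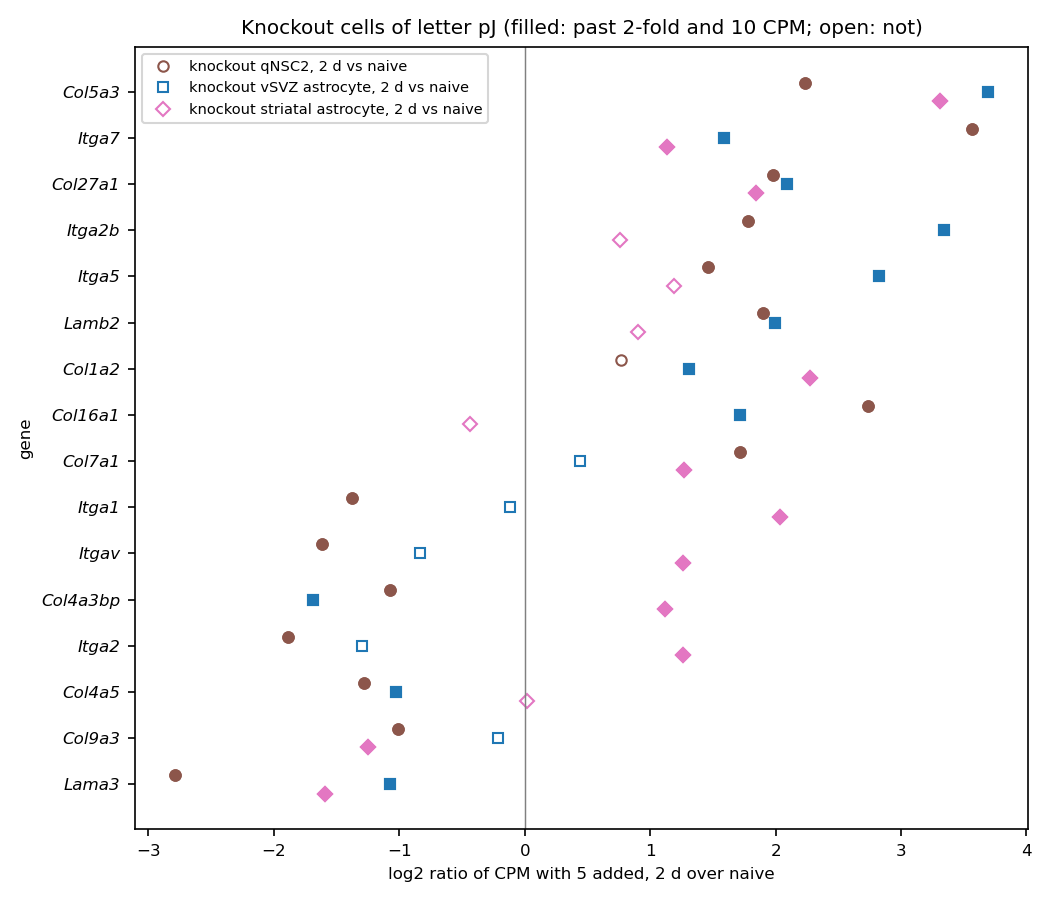
Log2 ratio of 2 d over naive raw CPM, with 5 CPM added to each, in 3 labelled types of the knockout for the 16 members past the fold in at least 2 types. Col5a3, Col27a1 and Itga7 lie above 1 in all 3 types, Lama3 lies below -1 in all 3, and Col4a3bp lies at 1.12 in striatal astrocytes and at -1.69 and -1.07 in the other types.

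Neurogenic striatal astrocytes, which the labels set apart from other striatal astrocytes at 2 d, had low levels of several matrix receptors in the knockout. Of 31 members, 12 were past the fold downward and 4 upward, against 18.8% and 24.7% of all genes, and the median log2 ratio was -0.71 against 0.16 over all genes. Itga7 was at 0.756 raw CPM (2 counts) against 91.2 (84.5 to 98.3), Itgav at 4.54 (2.34 to 7.92) against 135 (127 to 144; -3.88), and Col5a3 at 0 against 65.1, at least 57.4-fold lower. Upward were Col9a2, a type IX collagen chain, at 18.5 against 0.133 (1 count), Itgb3bp at 57.5 against 14.1 (1.71) and Col11a1 at 14.0 against 3.46 (1.17), the last with 97.3% of its counts in 1 cell and a ratio of -0.65 without it. These are 27 cells of 1 letter against 82. The 6 neurogenic striatal astrocytes of TiCY mice at 2 d, which entered no comparison, had Itgav at 11.4 raw CPM (7.47 to 16.8) but Itga7 at 194 (176 to 213) and Col5a3 at 81.8 (70.5 to 94.4), so Itga7 and Col5a3 were not low in those cells.

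Regions were compared within 1 letter or across letters, again without a test. Cortical astrocytes of pL had 10 of 26 members past the fold upward against striatal ones and 1 downward, against 11.3% and 12.2% of all genes, and a median log2 ratio of 0.47 against -0.01. Col27a1 was at 115 raw CPM (105 to 124) against 9.85 (7.38 to 12.9; 3.01), Col4a2 at 52.9 against 9.11 (2.04), with 59.1% of the counts in 1 cell, and Itgav at 103 (94.4 to 113) against 29.2 (24.8 to 34.1; 1.66). Lamb2, at 460 (441 to 480) against 218 (205 to 230), and Col16a1, at 85.9 against 39.6, were past the fold as well, and Itgb1bp1, an inhibitor of beta 1 integrins, was lower at 26.4 against 69.7 (-1.25). The neuroblasts and neurons of the olfactory bulb (pF) against vSVZ neuroblasts of pC and pD had 7 of 17 upward and 4 downward, against 21.7% and 16.1% of all genes. Col5a1, a fibrillar collagen, was at 31.3 raw CPM (27.8 to 35.1) against 0, at least 55.7-fold higher, Col9a2 at 20.1 against 0.187 (1 count), with 87.6% in 1 cell, and Col7a1 at 37.7 against 4.31 (2.20). Itgb1 was lower there, at 19.3 (16.5 to 22.3) against 68.5 (61.7 to 75.9; -1.60), as were Col4a3bp at 9.20 against 26.6 (-1.15) and Col23a1 at 5.41 against 22.7 (-1.41), whose vSVZ counts came to 99.2% from 1 cell, without which its ratio was 1.01. Letter and region cannot be told apart in that comparison.

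In pE, WT striatal astrocytes had 3 of 32 members past the fold upward against qNSC1 and 7 downward, against 14.2% and 9.05% of all genes. Itga6 was at 254 raw CPM (245 to 264) against 120 (115 to 125; 1.06) and Col9a3 at 71.3 against 31.1 (1.08). Col4a4 stood at 86.9 against 0, but 99.9% of its counts came from 1 cell. Lower were Col9a2, at 0 against 10.7 (at least 35.8-fold), Col4a3bp at 23 against 76.7 (-1.55) and Col4a1 at 2.50 against 16.6 (-1.53). In naive vSVZ and striatal astrocytes of pJ and pM Itga6 was at 54.9 to 178 CPM and in their neuroblasts at 0.503 and 0.418, whereas WT neuroblasts held 21.1, 26.8, 14.8 and 0 CPM in pA to pD.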

How the data were processed

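RNA of 1981 labelled single cells was analysed. Per the submitters' processing notes, reads were aligned with STAR and counted with featureCounts on GRCm38 (mm10); no source used here gives versions, annotation or strand setting. The deposited values are raw read counts per gene and cell, whole numbers without molecular identifiers. Of 2584 cells in the table, 603 matched no label and were not used, and 103 labelled cells are not analysed here. Symbols, lengths and coordinates came from GENCODE M21 on GRCm38.

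From the counts, sums were made per group and letter, with at least 3 cells a sum. They were tested with edgeR 4.0.16 (R 4.3.3, limma 3.58.1; TMM, filterByExpr, quasi-likelihood F test) and Benjamini-Hochberg adjustment over all genes of a fit, with a threshold of 0.05. The WT fit held 22 sums, the sort fit 12, the naive fit 12 and each ischemia fit 5. The last had 1 residual degree of freedom and spread taken from the trend over genes. With 1 letter a group, raw CPM is given with exact 95% Poisson intervals, and a gene counts as past the fold at a ratio of 2 or more with 5 CPM added and 10 CPM or more in 1 group. A group at 0 gives a bound against 3 counts over the group.

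Letters are the same mice in every type and sort (per the labels' design text), so letter pairs the sums: deviations of same-letter sums correlated at 0.171 to 0.572 in the WT types and 0.184 to 0.452 in the sorts, and at 0.0567 to 0.216 with 2 letters in the naive set. Alternatives were DESeq2 1.42.0, no filter, letter as a replicate block, leaving out each letter, letter sets, other amounts of added CPM, and leaving out cells with 3 or more vascular markers. Leaving out each gene's single highest cell, 1 cell per gene over all sums of a fit or comparison, was added after seeing the data. The fits were tested on simulated counts. Python 3.11.15 with numpy 2.4.6, pandas 2.3.3, scipy 1.17.1 and matplotlib 3.10.9 was used for the rest. Named genes were all called members where 10 or fewer were called and otherwise the 5 with the smallest adjusted p in each direction; without a test, the 3 with the largest ratio each way; up to 3 partner genes per comparison by adjusted p; and 19 matrix and receptor genes whatever their values. The members, lists and tests were chosen with earlier results of these data known. Members discussed beyond that rule (Col5a2, Itgb1bp1 in aNSC, the genes followed across knockout types, the uncalled examples) were chosen after their values were seen.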

Additional observations from a re-analysis of the deposited data

Results flagged for a closer look

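In 12 of 66 sets of 4 or 5 letters, 1 letter lay far from the others by Dixon's 95% critical value. Chance alone flags about 1 in 20 sets of normally distributed values. CPM was used without a log scale and need not have that shape, so the rate may differ here. In 4 of the 12 every other letter was at 0, where any count is flagged and that rate does not apply: Col12a1 in qNSC1 and qNSC2, Itgb3 in qNSC2 and Col4a5 in neuroblasts. In qNSC1, Col4a5 was at 132.9 CPM in pA against 7.16 to 28.1 in the other letters, Col11a1 at 7.32 in pE against 0 to 1.92, and Col12a1 at 0.0568 in pE against 0. In qNSC2, Itgb8, the alpha v partner, was at 4.07 CPM in pD against 328 to 340 in pA, pB and pE, and pD is the one shallow letter of that type. Col4a1 was at 60.2 CPM in qNSC2 of pA against 3.96 to 10.7, Lamc1 at 35.4 in pE against 0.272 to 5.42, and Col12a1 and Itgb3 at 2.93 and 0.154 in pE against 0. Col16a1 was lower in qNSC2 of pA, at 43.4 CPM against 58.3 to 60.6. In neuroblasts, Lamb2 was at 40.5 CPM in the 7 cells of pD against 0 to 0.131, Itgb4 at 12.4 in pA against 0 to 1.34, and Col4a5 at 0.212 in pC against 0.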

How the results depend on the processing

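The number of members called depended on the setting; the causes were not tested. DESeq2 called 3 (qNSC2 against qNSC1), 5 (aNSC against qNSC2), 4 (TAP against aNSC), 5 (neuroblast against TAP), 2 (ASTRO sort), 17 (naive neuroblasts) and 10 (striatal sort at 2 d). With letter as a replicate block, 1 member was called in qNSC2 against qNSC1 and 1 in aNSC against qNSC2, and the counts were 16 in neuroblasts against qNSC1, 17 in oligodendrocytes, 14 in the NB sort, 10 in the OLIGO sort and 11 in naive neuroblasts, against 13, 14, 12, 9 and 11 without it. Calls gained with the pairing beside those given above were Itgb8 (edgeR adjusted p = 0.0125) and Col1a2 (0.0348) in neuroblasts against qNSC1, Itgb1 (0.0283), Col5a2 (0.0432) and Col7a1 (0.0462) in oligodendrocytes, Itga1 (0.0394) and Col9a2 (0.0453) in the NB sort and Col7a1 (0.0423) in the OLIGO sort; no other member's call changed. Within pA, pB and pE the counts were 1 (aNSC against qNSC2) and 3 (neuroblast against TAP), and within pC and pD 2 (neuroblast against qNSC1) and 0 (oligodendrocyte). Without cells with vascular markers they were 3 and 3 in those comparisons, 2 in the NB sort and 0 in the OLIGO sort. This was not possible for striatal astrocytes of pE, where it left too few cells. Leaving out each letter gave 0 to 2 calls for neuroblast against TAP, 6 to 14 for neuroblast against qNSC1, 3 to 15 for oligodendrocytes, 5 to 9 for the NB sort and 1 to 3 for the OLIGO sort. Adding 20 CPM left 3 members past the fold in the vSVZ sort at 21 d, 4 in the striatal sort at 21 d, 6 in the cortex, 3 in the olfactory bulb, 2 in pE, 10, 7 and 10 in knockout vSVZ astrocytes, striatal astrocytes and qNSC2, and 10 in neurogenic astrocytes. Without the highest cell, 4 remained past it in the cortex, 3 in the olfactory bulb and 13 in knockout qNSC2; Col23a1 in the olfactory bulb turned to 1.01 and Col11a1 in neurogenic astrocytes to -0.65. Of the other values of named members, 464 stayed the same by the rule of their comparison, 86 lost the call and 85 moved. Where no test was made, the same means a log2 ratio within counting error of the main one. Within 1 genotype alone it means a difference of less than 1 log2 unit. Neither of these 2 rules looks at the call. Over named members, the call held without each letter for 4 of 6 (neuroblast against qNSC1), 2 of 8 (oligodendrocyte), 4 of 6 (NB sort) and 1 of 9 (OLIGO sort). Sums of few cells and shallow letters limit what could be seen: a member at 0 there may be below detection.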

Other observations

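Reactive astrocytes, named so by the labels, were too few for a comparison: 7 cells of the striatal sort of TiCY mice at 2 d and, in the knockout at 2 d, 4 of the vSVZ sort and 5 of the striatal sort. Itga5, the fibronectin receptor chain, was at 115 (102 to 129), 419 (329 to 526) and 326 (282 to 376) raw CPM in these 3 sums, with exact Poisson intervals. Itga7 was at 229, 629 and 537 and Col5a3 at 200, 357 and 469, so the 2 d values of these genes were high in the few reactive cells of both genotypes. Lama3 was at 0 in all 3 sums, and Col11a2 at 0, 0 and 1.70. Lamb2 ranged from 28.1 to 725, Col16a1 from 11.6 to 210 and Lama5 from 3.21 to 323, and Itgb1 was at 144, 113 and 117. In the first sum 88.8% of the Col5a3 counts and 80.1% of those of Itga5 came from 1 cell.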
